A study of Mus musculus with 8 samples.

Results

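The interferon-inducible p200 family is a run of related genes on mouse chromosome 1, and it was followed here in femoral shaft bone of mice lacking Girk3. Girk3 is the product of Kcnj9, which codes for a potassium channel subunit gated by G proteins and lies on the same chromosome. The family was taken as 10 listed genes (Ifi202b, Ifi213, Ifi203, Ifi204, Ifi207, Ifi209, Ifi211, Ifi214, Mndal and Aim2) out of 49315 gene IDs in the count table. The members were chosen by name and position once the counts of knockout and wild-type bone were known, with Ifi202b and Ifi213 already seen to differ, so the differences between genotypes below are descriptions of the members and carry no test.

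Bulk RNA sequencing compared 4 Girk3-/- mice (KO) with 4 wild-type mice (WT), 1 library per mouse. All 8 animals were males aged 24 weeks and carry the strain label C57BL6. The tissue was the shaft of the femur after removal of the bone ends and flushing of the marrow. The sources used here do not give the part of Kcnj9 that was deleted, the strain in which it was deleted or whether WT mice were littermates. The question is which members differ in adult bone that lacks Girk3, and how far near-identical sequences limit the answer.

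Proteins of this family, also called PYHIN proteins, carry DNA-binding HIN domains, in most members next to a PYRIN domain that joins partner proteins. Several of them sense DNA in the cytosol or nucleus, and many are switched on by interferons through GAAA-rich promoter elements. They are best known in macrophages and other blood cells, and mouse Ifi204 has also been linked to osteoblast differentiation together with Runx2 and Rb1. The mouse cluster is known to vary in gene content and expression between inbred strains, and Ifi202b is the textbook case, low in C57BL/6 and high in NZB mice.

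The 10 members lay between 173350879 and 173982744 on chromosome 1 (GRCm38, the same build as mm10, with GENCODE M21 genes), a span of 631.9 kb. Its near edge was 1.022 Mb and its far edge 1.653 Mb from Kcnj9, which occupies 172320501 to 172329318 on the minus strand. Aim2 was the member nearest to Kcnj9 and Ifi202b the farthest. Only Aim2 and Ifi209 are annotated on the plus strand, and the other 8 members on the minus strand.

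The promoter sequences are shown because the family is named for its response to interferon. RefSeq (GRCm38.p6) gave promoter windows of 300 bases, from 250 before to 50 after the annotated start, for 9 of the 10 members, 11 windows in all. Ifi204 had no window and was not searched. The search covered both strands for GAAA followed after any 2 bases by GAAA (ISRE-like, after the element bound by interferon-stimulated factors) and for TTCNNNGAA (GAS-like, after the element bound by STAT dimers). The ISRE-like letters were found in 7 of the 11 windows, of 6 members, against 3.443% of all 32851 RefSeq mouse promoter windows of the same length. The GAS-like letters were found in 1 window, that of Ifi202b, against 8.298% of all windows. The stretches below are 40 bases long on the strand of the gene, with the ISRE-like letters in capitals, and each is named with the promoter window that holds it. That of Ifi209 is 1 letter away from the motif and is shown for its likeness to those of Ifi213 and Ifi214.
Ifi213, chr1:173599223-173599522, minus strand: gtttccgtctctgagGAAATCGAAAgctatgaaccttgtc
Ifi214, chr1:173535908-173536207, minus strand: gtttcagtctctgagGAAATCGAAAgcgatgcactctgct
Ifi209, chr1:173630609-173630908, plus strand: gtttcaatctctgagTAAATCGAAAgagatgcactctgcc
Ifi207, chr1:173741760-173742059, minus strand: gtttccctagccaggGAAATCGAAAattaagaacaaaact
Ifi211, chr1:173912997-173913296, minus strand: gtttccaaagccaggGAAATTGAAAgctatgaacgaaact
Ifi203, chr1:173942443-173942742, minus strand: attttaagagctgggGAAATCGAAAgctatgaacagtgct
Mndal, chr1:173880138-173880437, minus strand: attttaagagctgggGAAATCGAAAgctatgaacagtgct
The stretches of Ifi203 and Mndal were identical. The motif began 73 bases before the start of Ifi213, 79 before that of Ifi214, 41 before that of Ifi207 and 37 before that of Ifi211. It began 35 before that of Ifi203 and 36 before that of Mndal. The near match of Ifi209 began 79 bases before its start. The other Mndal window, not shown, held a match on the opposite strand that began 54 bases before its own start. These matches describe letters in the reference genome and not binding in bone.

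The 2 members with the widest gap between genotypes, Ifi202b and Ifi213, are given with their whole promoter windows. Capitals mark the GAS-like letters of Ifi202b, which began 148 bases before its start, and the ISRE-like letters of Ifi213. Both sequences are written 5′ to 3′ on the minus strand.
Ifi202b, chr1:173982795-173983094, minus strand: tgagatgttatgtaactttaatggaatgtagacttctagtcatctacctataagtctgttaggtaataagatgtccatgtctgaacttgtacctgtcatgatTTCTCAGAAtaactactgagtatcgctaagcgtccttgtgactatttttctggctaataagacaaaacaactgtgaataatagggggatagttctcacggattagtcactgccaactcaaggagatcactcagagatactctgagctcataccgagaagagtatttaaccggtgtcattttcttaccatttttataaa
Ifi213, chr1:173599223-173599522, minus strand: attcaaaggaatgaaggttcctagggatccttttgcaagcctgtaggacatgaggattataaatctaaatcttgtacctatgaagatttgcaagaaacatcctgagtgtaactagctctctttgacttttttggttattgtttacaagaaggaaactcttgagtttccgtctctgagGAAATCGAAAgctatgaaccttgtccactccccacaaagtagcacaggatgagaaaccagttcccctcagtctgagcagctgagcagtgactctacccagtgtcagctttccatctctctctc
No ISRE-like letters were found in the Ifi202b window or in that of Aim2, where the nearest stretch was 1 letter away in each.

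The libraries held between 30937465 and 32348592 counts in KO and between 30087749 and 36553713 in WT. Levels are given as CPM, counts divided by the TMM-scaled library size, as mean ± SD over 4 mice unless single libraries are named. Kcnj9 itself had 0, 8, 4 and 7 counts in KO replicates 1 to 4, and 7, 6, 6 and 23 counts in WT replicates 1 to 4. These few counts overlapped, so the targeted gene offered no firm check of the genotype labels. KO replicate 4 and WT replicate 4 stood apart from the other libraries, at opposite ends of the first principal component of log2 CPM (33.47% of the variance, scores 60.53 and -53.5). Fold changes and sums of the members are also given without them, as are other values where stated. The sum of 10 macrophage markers was lowest in KO replicate 4, at 131.3 CPM, and highest in WT replicate 4, at 334.2 CPM.

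Ifi202b was far higher and Ifi213 far lower in KO bone than in WT bone. Ifi202b had counts of 418, 386, 346 and 192 in KO replicates 1 to 4, against 3, 4, 4 and 4 in WT replicates 1 to 4. Every KO library was high and every WT library near 0. Ifi202b encodes a protein of HIN domains without a PYRIN domain, known in mice to bind DNA and to dampen signalling from Aim2. Its level was 10.7 ± 2.55 CPM in KO and 0.109 ± 0.0227 CPM in WT (SD, n = 4 each), a log2 fold change of 6.59 (SE 0.29) in edgeR's fit. The 15 counts summed over the WT libraries correspond to 0.112 CPM on unscaled library totals, with an exact Poisson 95% interval of 0.0627 to 0.185 that covers counting error only.

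Ifi213 ran the other way, with counts of 2, 2, 2 and 0 in KO replicates 1 to 4, against 115, 108, 80 and 243 in WT replicates 1 to 4. Every KO library was near 0 and every WT library held at least 80 counts. Ifi213 is a member with a PYRIN domain whose own function is little described. Its level was 0.0464 ± 0.0310 CPM in KO and 3.75 ± 1.30 CPM in WT (SD, n = 4 each), a log2 fold change of -6.18 (SE 0.47). The 6 counts over the KO libraries correspond to 0.0471 CPM on unscaled library totals, with an exact Poisson 95% interval of 0.0173 to 0.103. Of the 10 members, 1 was called higher (Ifi202b) and 1 lower (Ifi213) in KO by edgeR's quasi-likelihood test at a Benjamini-Hochberg adjusted p of 0.05, where 0.00573% of the 17450 genes tested were called in each direction. These members were the only 2 genes called, 0.0115% of those tested, and since their difference was known when the list was drawn up, nothing is read from the count. An absolute log2 fold change of at least 6 was fitted for 3 genes, 0.0172% of those tested, these members and Itln1. Over all alternative fits that kept the members apart, the log2 fold change of Ifi202b lay between 6.40 and 6.79 and that of Ifi213 between -6.33 and -5.57. Since the strain of the Kcnj9 allele is not given, an effect of the deletion and one of DNA beside Kcnj9 that came with the allele cannot be told apart here, for these members or for the other genes of the interval.

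**Figure D1:**
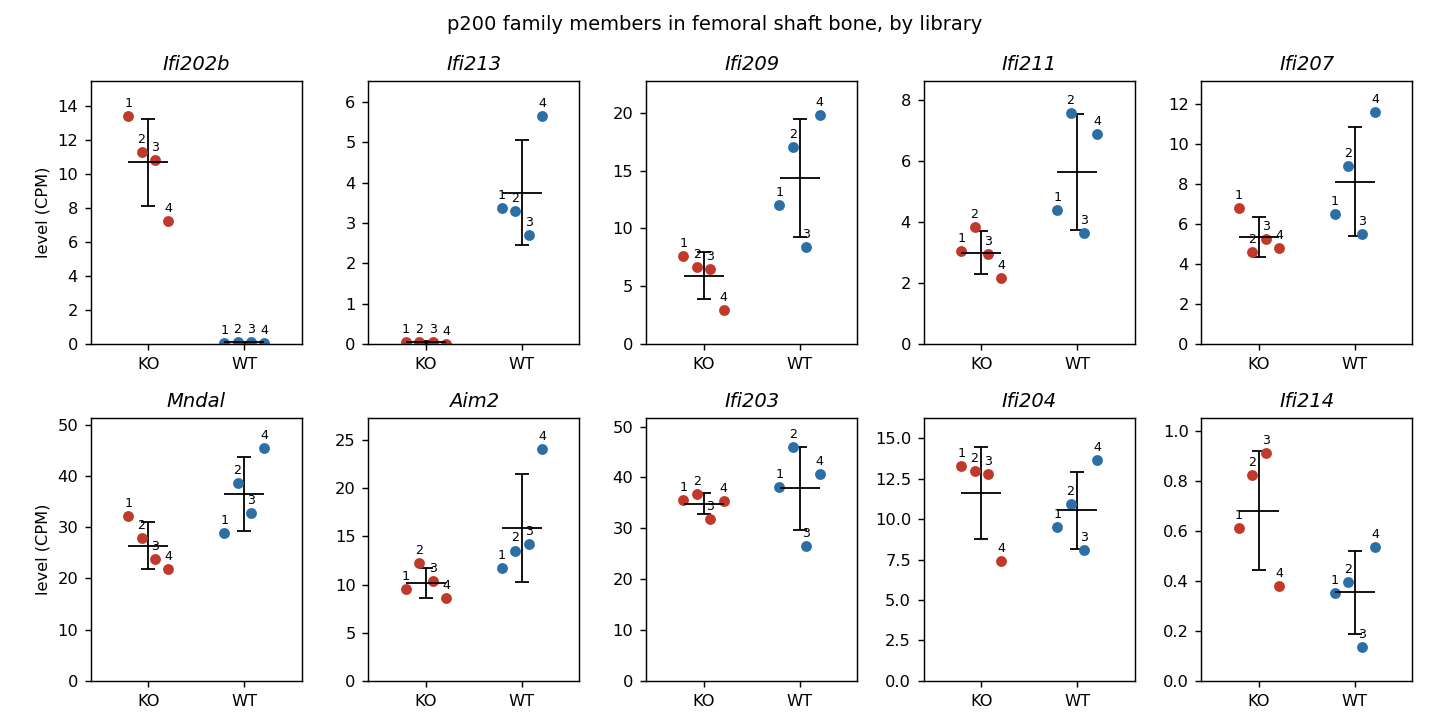
Level in CPM (vertical axis, linear, from 0) of each of the 10 members in KO (left, red) and WT (right, blue) libraries, numbered by replicate, with bars for mean ± SD. Ifi202b is near 0 in all 4 WT libraries and Ifi213 near 0 in all 4 KO libraries, and Ifi209 is the other member whose KO and WT libraries do not overlap.

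Among the members with a known signalling role, Aim2 was measured at a moderate level in both genotypes. Aim2 is the cytosolic DNA sensor that assembles an inflammasome through Pycard. It had 9.53, 12.3, 10.4 and 8.60 CPM in KO replicates 1 to 4, against 11.7, 13.5, 14.2 and 24.1 CPM in WT replicates 1 to 4. The groups overlapped, with WT replicate 4 highest of all 8 libraries. The log2 fold change was -0.64 (SE 0.23). Ifi204, whose protein p204 binds DNA and has been linked in mice to osteoblast differentiation, had 13.3, 13.0, 12.8 and 7.39 CPM in KO, against 9.50, 10.9, 8.09 and 13.7 CPM in WT. KO replicates 1 to 3 all lay above WT replicates 1 to 3, while KO replicate 4 was the lowest and WT replicate 4 the highest of the 8 libraries. The log2 fold change over all libraries was 0.14 (SE 0.22), with overlapping groups.

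Mndal and Ifi203 were the most abundant members by CPM. Mndal, named for its likeness to the human myeloid nuclear differentiation antigen, had 32.2, 27.8, 23.8 and 21.9 CPM in KO, against 28.9, 38.6, 32.8 and 45.5 CPM in WT. KO replicate 1 lay above WT replicate 1, so the groups overlapped, and the log2 fold change was -0.46 (SE 0.17). Ifi203 had 35.6, 36.8, 31.8 and 35.3 CPM in KO, against 38.1, 46.0, 26.6 and 40.7 CPM in WT. All 4 KO libraries of Ifi203 fell within the WT range, and its log2 fold change was -0.12 (SE 0.16).

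Ifi209, Ifi211 and Ifi207 lie between Ifi213 and Ifi202b and were lower on average in KO. Ifi209 had 7.61, 6.70, 6.46 and 2.95 CPM in KO, against 12.1, 17.1, 8.40 and 19.8 CPM in WT. All KO libraries of Ifi209 lay below all WT libraries, and the log2 fold change was -1.27 (SE 0.32). Ifi211 had 3.05, 3.85, 2.95 and 2.16 CPM in KO, against 4.40, 7.57, 3.64 and 6.89 CPM in WT. KO replicate 2 lay above WT replicate 3, so the groups met at 1 point, and the log2 fold change was -0.90 (SE 0.27). Ifi207 had 6.80, 4.61, 5.24 and 4.81 CPM in KO, against 6.48, 8.91, 5.50 and 11.6 CPM in WT, again with overlap, and a log2 fold change of -0.60 (SE 0.24).

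Ifi214 had few counts in both genotypes. There were 19, 28, 29 and 10 counts in KO replicates 1 to 4, against 12, 13, 4 and 23 counts in WT replicates 1 to 4. Its level was 0.680 ± 0.237 CPM in KO and 0.354 ± 0.166 CPM in WT, with overlap, and its log2 fold change was 0.92 (SE 0.43).

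In all, 3 members had a positive and 7 a negative log2 fold change, against 48.6% positive and 51.4% negative among all genes tested, and the median over the 10 was -0.53, against -0.01 over all genes. KO and WT libraries did not overlap for 3 members, 1 higher (Ifi202b) and 2 lower (Ifi213 and Ifi209), where 13.1% of all genes tested did not overlap, 7.33% higher and 5.78% lower. In replicates 1 to 3 alone, Ifi202b, Ifi204 and Ifi214 did not overlap and were higher, and Ifi213 and Ifi209 did not overlap and were lower, where 15.5% of genes were higher and 14.7% lower without overlap. Without KO replicate 4 and WT replicate 4, the log2 fold change was 6.65 for Ifi202b, -5.57 for Ifi213, -0.85 for Ifi209, -0.66 for Ifi211, -0.33 for Ifi207, -0.29 for Aim2, -0.26 for Mndal, -0.09 for Ifi203, 0.45 for Ifi204 and 1.38 for Ifi214, so each kept its sign. WT replicate 4 was the highest library for 6 members (24.1% of all genes) and KO replicate 4 the lowest for 6 members (20.2% of all genes).

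The order of the members by level per kilobase of exon also differed between genotypes at Ifi202b and Ifi213. In KO the order of mean CPM per kilobase was Mndal (7.28 ± 1.26), Ifi202b (6.32 ± 1.51), Ifi203 (5.20 ± 0.320), Ifi204 (3.26 ± 0.792), Aim2 (2.92 ± 0.449), Ifi211 (1.68 ± 0.387), Ifi209 (1.67 ± 0.576), Ifi207 (1.57 ± 0.290), Ifi214 (0.0839 ± 0.0293) and Ifi213 (0.00679 ± 0.00454). In that order the libraries of Ifi203 and Ifi204, of Aim2 and Ifi211, of Ifi207 and Ifi214, and of Ifi214 and Ifi213 did not overlap, and the other neighbours did. In WT the order was Mndal (10.04 ± 1.988), Ifi203 (5.64 ± 1.22), Aim2 (4.53 ± 1.59), Ifi209 (4.04 ± 1.44), Ifi211 (3.15 ± 1.06), Ifi204 (2.96 ± 0.669), Ifi207 (2.37 ± 0.795), Ifi213 (0.548 ± 0.189), Ifi202b (0.0645 ± 0.0134) and Ifi214 (0.0437 ± 0.0204). There the libraries from Ifi203 to Ifi207 overlapped neighbour by neighbour, while Mndal stood above Ifi203, Ifi213 below Ifi207 and Ifi202b below Ifi213 with no overlap. Ifi202b was thus the second member per kilobase in KO and the ninth in WT.

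The summed level of the 10 members, which depends less on how reads were divided among them, was 122.1, 117.2, 105.2 and 90.75 CPM in KO replicates 1 to 4, against 115.0, 146.4, 102.1 and 168.5 CPM in WT replicates 1 to 4. The groups overlapped, with KO replicate 4 lowest and WT replicate 4 highest. The means were 108.8 ± 13.99 CPM in KO and 133.0 ± 30.08 CPM in WT (SD, n = 4 each), a log2 ratio of -0.29. Without KO replicate 4 and WT replicate 4 the means were 115 CPM in KO and 121 CPM in WT, a log2 ratio of -0.08. For the 8 members other than Ifi202b and Ifi213, the sum was 98.1 ± 11.5 CPM in KO and 129 ± 29.0 CPM in WT, a log2 ratio of -0.40, or -0.20 without those libraries, and it overlapped as well. In bulk RNA a lower sum from fewer cells of a type and one from less RNA per cell cannot be told apart.

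**Figure D2:**
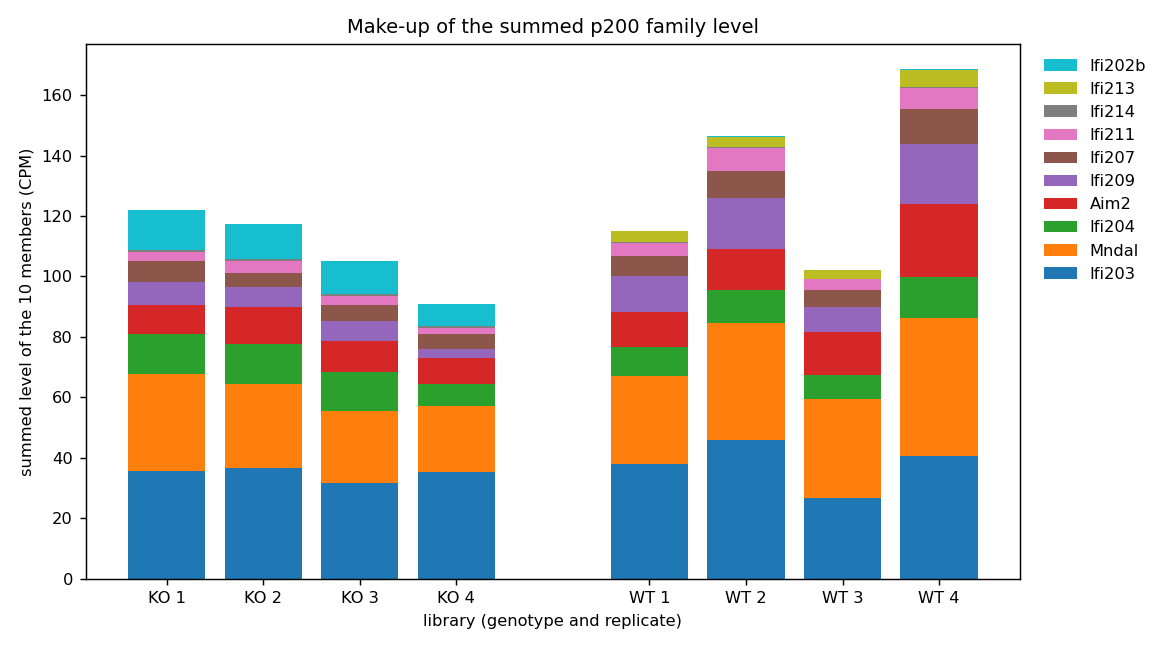
Stacked level in CPM (vertical axis, from 0) of the 10 members in each library, with the 4 KO libraries left of the 4 WT libraries. Ifi202b forms the top layer of the KO libraries and is absent to the eye from WT, and the total height runs from 90.75 CPM in KO replicate 4 to 168.5 CPM in WT replicate 4.

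The make-up of the sum differed more than its size. Ifi202b held 9.75 ± 1.27% of the sum in KO and 0.0868 ± 0.0325% in WT. Ifi213 held 0.0406% in KO and 2.79 ± 0.464% in WT. Shares of a library's own sum are less exposed to how much of the family a library holds, and 5 members did not overlap by share, where 8.42% of all genes tested did not overlap when divided by the same sum. Besides Ifi202b and Ifi213 these were 3 further members. Ifi209 held 5.34 ± 1.40% in KO and 10.5 ± 1.65% in WT, Ifi211 2.74 ± 0.404% in KO and 4.16 ± 0.704% in WT, and Ifi214 0.621 ± 0.202% in KO and 0.257 ± 0.0852% in WT. Ifi203 and Mndal together made up more than any other pair in each genotype, with 32.4 ± 4.43% and 24.2 ± 1.58% in KO, against 28.7 ± 4.29% and 27.6 ± 3.05% in WT. In replicates 1 to 3 the mean shares were 10.3% in KO and 0.0973% in WT for Ifi202b, 0.0541% in KO and 2.61% in WT for Ifi213, 6.03% in KO and 10.1% in WT for Ifi209, 2.86% in KO and 4.19% in WT for Ifi211, and 0.689% in KO and 0.236% in WT for Ifi214. A share moves when any other member moves, and the gain of Ifi202b alone lowers the shares of the rest. The members are part of the sum they are divided by and other genes are not, so the 8.42% is not a like background.

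Reads of near-identical members bear on these values, since the sources used here give neither the read length nor how reads with several matches were counted. Each member's annotated transcripts were divided into all windows of 100 bases, and the windows found in no other gene's transcripts were counted. Every window of Ifi202b and of Aim2 was unique. The share was 99.2% for Ifi207, 97.2% for Ifi203, 96.7% for Ifi213, 93.6% for Mndal, 92.7% for Ifi214, 89.3% for Ifi204, 83.1% for Ifi209 and 43.1% for Ifi211. Ifi211 shared 37.2% of its windows with Ifi205, a p200 gene outside the list, and Ifi209 shared 16.9% of its windows with Ifi214. At 50 bases the share was still 100% for Ifi202b but 84.4% for Ifi213, which shared 13.6% of those windows with Ifi208, so reads of that length could be lost or shared at Ifi213. Counts of Ifi211 are uncertain at every window length tried. The windows describe annotated transcripts of the reference only. Where the KO sequence differs from the reference, which was not tested, reads could be placed otherwise.

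**Figure D3:**
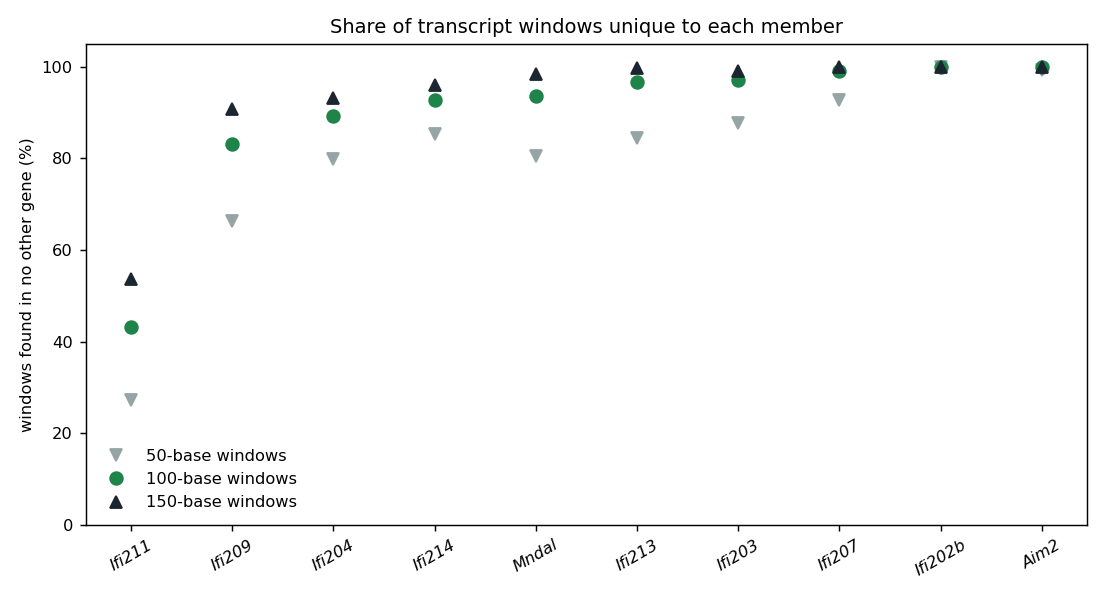
Share of transcript windows found in no other gene (vertical axis, percent) for each member, for windows of 50, 100 and 150 bases. Ifi211 is the lowest at every window length, with 27.2%, 43.1% and 53.6%, and Ifi202b is at 100% throughout.

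The coding sequences show the range of likeness behind these shares. The coding sequence of Ifi213 was 96.9% identical to that of Ifi208, a p200 gene outside the list, over 1761 bases, with a longest identical run of 149 bases. The first 90 coding bases of Ifi213 and Ifi208 (GRCm38, GENCODE M21 transcripts, coding strand) are given with the 2 mismatches in capitals.
Ifi213: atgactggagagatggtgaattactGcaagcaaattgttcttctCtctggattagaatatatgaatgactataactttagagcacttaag
Ifi208: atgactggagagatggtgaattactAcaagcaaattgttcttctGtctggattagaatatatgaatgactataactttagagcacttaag
Ifi202b had no such close relative in the annotation. Its longest alignment was to the coding sequence of Ifi204, with 75.1% identity over 1207 bases. The identical runs it shared with p200 coding sequences were at most 30 bases long. A close local match was to Mndal, where 60 coding bases differed at 4 places, in capitals, between coding bases 239 and 298 of Ifi202b and bases 1007 to 1066 of Mndal.
Ifi202b: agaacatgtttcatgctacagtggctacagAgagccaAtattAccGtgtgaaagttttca
Mndal: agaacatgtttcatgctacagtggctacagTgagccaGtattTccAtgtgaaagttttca
Among other close pairs, Ifi214 matched Ifi209 at 96.9% over 639 bases, with an identical run of 253 bases. Ifi211 matched Mndal at 96.5% over 827 bases, Ifi204 at 96.3% over 1260 bases, and Ifi205 at 94.7% over 1215 bases with an identical run of 495 bases. Ifi204 matched Mndal at 96.0% over 774 bases. Annotated exons of Mndal shared 155 bases with those of Ifi203 and of the pseudogene Gm38050 on the same strand, and no other pair of members shared exon bases.

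Sums over genes that share windows were then compared, as sets chosen after their values were seen. Ifi213, Ifi208 and Ifi206 together had 21, 37, 32 and 20 counts in KO replicates 1 to 4, against 182, 169, 124 and 353 counts in WT replicates 1 to 4. All KO libraries lay below all WT libraries, and the log2 ratio of the mean CPM was -2.70. Ifi209 and Ifi214 together had 6.61 ± 2.22 CPM in KO and 14.7 ± 5.26 CPM in WT, again without overlap, a log2 ratio of -1.15. For Ifi204, Ifi211 and Ifi205 the sum was 15.7 ± 3.46 CPM in KO and 16.9 ± 4.05 CPM in WT, with overlap, a log2 ratio of -0.10. Ifi204 supplied most counts of that sum in every library. Without KO replicate 4 and WT replicate 4 the log2 ratio was -2.41 for Ifi213, Ifi208 and Ifi206 and -0.73 for Ifi209 and Ifi214. For Ifi204, Ifi211 and Ifi205 it was 0.18, a change of sign.

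Of 9 other p200 genes listed, 4 were in the table. Ifi208 had 18, 28, 23 and 12 counts in KO replicates 1 to 4, against 37, 37, 35 and 64 counts in WT replicates 1 to 4. Ifi206 had 1, 7, 7 and 8 counts in KO, against 30, 24, 9 and 46 counts in WT, and fell under the low-count filter. By CPM both relatives of Ifi213 were lower in every KO library than in any WT library, by a narrow gap for Ifi206 (8 counts in KO replicate 4 against 9 in WT replicate 3). Ifi205 had 1.12 ± 0.292 CPM in KO and 0.693 ± 0.143 CPM in WT without overlap, a log2 fold change of 0.69 (SE 0.29). The pseudogene Ifi203-ps had 3.36 ± 1.34 CPM in KO and 5.58 ± 0.898 CPM in WT, with overlap. None of the 3 that passed the filter was called, where only 0.0115% of all genes tested were, so nothing is read from the absence. All 3 had an unadjusted edgeR p under 0.05, 1 higher and 2 lower in KO, against 18.2% of all genes. These genes were listed with earlier results of the data known. Beside them, the pseudogene Gm38050 had 10, 9, 12 and 11 counts in KO, against 1, 0, 1 and 0 in WT, and Gm7897 had 0 counts in each KO library, against 1, 8, 6 and 7 in WT. The last pair were named after their values were seen.

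**Figure D4:**
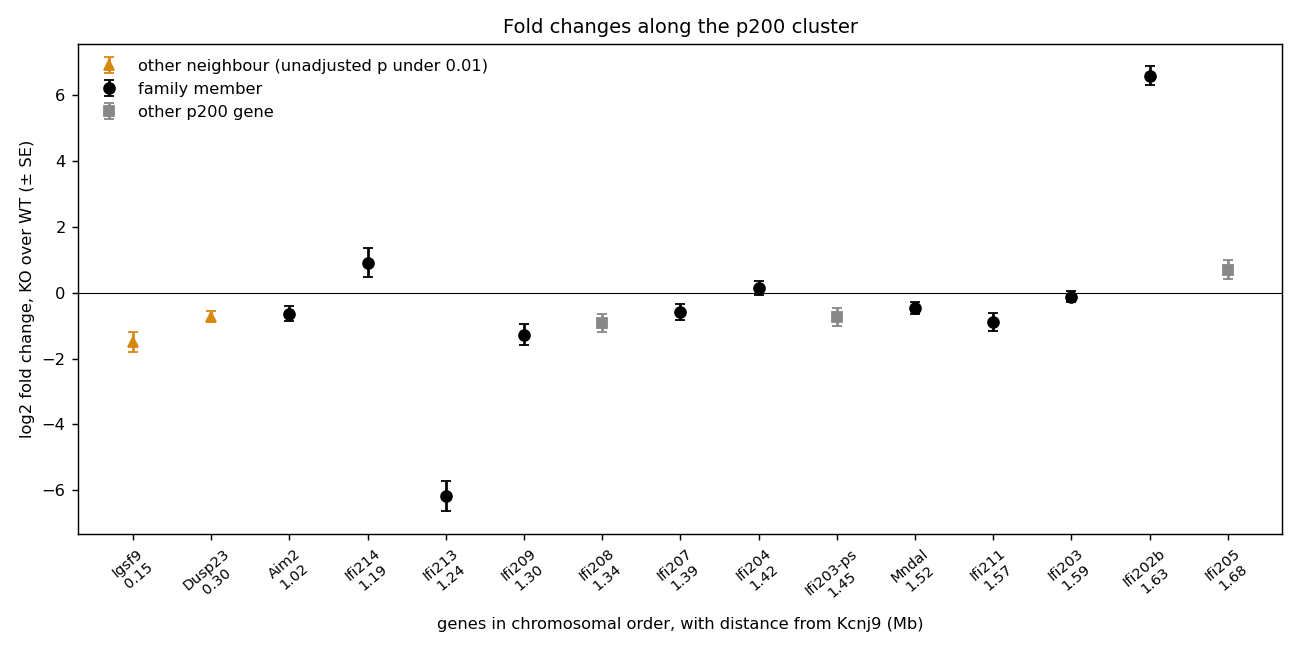
Log2 fold change of KO over WT (vertical axis, ± SE from the edgeR fit) for the p200 genes that passed the filter and for 2 other genes of the interval, in chromosomal order, with the distance from Kcnj9 in Mb under each name. Ifi213, at 1.24 Mb, and Ifi202b, at 1.63 Mb, lie on opposite sides of 0, at -6.18 and 6.59, and the p200 genes between them lie between -1.27 and 0.14.

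Between Kcnj9 and the far end of Ifi205, the p200 gene just beyond Ifi202b, 25 genes were tested, 13 of them p200 genes. Of the other 12, 2 had an unadjusted edgeR p under 0.01 and neither was called, where 0.0115% of all genes tested were. The share of all genes under 0.01 was not counted, and 18.2% were under 0.05, so nothing is read from this count. Igsf9, an immunoglobulin superfamily adhesion protein, had 0.738, 0.441, 0.502 and 0.530 CPM in KO, against 1.09, 1.34, 1.55 and 2.28 CPM in WT, without overlap, and edgeR's log2 fold change was -1.50 (SE 0.31) at an adjusted p of 0.0769. Dusp23, a dual-specificity phosphatase, had 17.81, 14.96, 16.43 and 19.7 CPM in KO, against 30.2, 32.5, 30.2 and 20.9 CPM in WT, without overlap, and edgeR's log2 fold change was -0.72 (SE 0.15) at an adjusted p of 0.0769. Over all genes tested, 13.1% did not overlap. In replicates 1 to 3 the log2 ratio of mean CPM was -1.24 for Igsf9 and -0.915 for Dusp23. Both genes lie nearer to Kcnj9 than any p200 member.

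No gene of the pathway lists around the family was called by edgeR, where only 0.0115% of all genes tested were, so nothing is read from the absence. Calls in these lists were not counted under the other fits. Of 20 tested genes of cytosolic DNA sensing and the inflammasome, 7 were higher and 13 lower on average in KO (median log2 fold change -0.09), against -0.01 over all genes. None was called at the adjusted threshold and none had an unadjusted p under 0.05, where 18.2% of all genes tested had one. The smallest p values in that list belonged to Zbp1, a sensor of Z-form nucleic acids, with 2.02 ± 0.603 CPM in KO and 2.98 ± 1.16 CPM in WT (edgeR adjusted p = 0.397), and to Nlrc4, an inflammasome sensor of bacterial proteins, with 1.69 ± 0.625 CPM in KO and 2.67 ± 1.34 CPM in WT (edgeR adjusted p = 0.418). Both overlapped between genotypes. Both were highest in WT replicate 4 and lowest in KO replicate 4, and in replicates 1 to 3 their log2 ratio of mean CPM was -0.10 each.

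Of 14 genes of interferon receptors and signalling, 4 were positive and 10 negative, with a median of -0.10. Tyk2, a kinase of the type I interferon receptor, had 28.3, 29.5, 29.0 and 25.2 CPM in KO, against 34.9, 43.6, 34.5 and 43.4 CPM in WT. The libraries did not overlap (13.1% of all genes), and the log2 fold change of -0.48 (SE 0.12) did not pass the threshold (edgeR adjusted p = 0.0940). Socs1, which inhibits JAK kinases, had 4.91, 6.29, 4.99 and 5.0 CPM in KO, against 3.40, 2.96, 4.62 and 3.58 CPM in WT. It was higher in every KO library than in any WT library, with and edgeR's log2 fold change was 0.54 (SE 0.19) at an adjusted p of 0.169.

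Of 34 tested interferon-induced genes, 15 were positive and 19 negative, with a median of -0.06, and none was called, where 3 had an unadjusted p under 0.05 (1 higher, 2 lower), against 9.59% higher and 8.59% lower over all genes. Ifi27, a mitochondrial and nuclear-envelope interferon product, had 64.5 ± 8.32 CPM in KO and 51.2 ± 7.47 CPM in WT (edgeR adjusted p = 0.235). Mx2, an antiviral GTPase, had 1.64 ± 0.243 CPM in KO and 2.45 ± 0.513 CPM in WT (edgeR adjusted p = 0.216). Of 12 known partners of p200 proteins in transcription, 5 were positive and 7 negative, with a median of -0.10. Among these, Runx2, the osteoblast transcription factor, had 37.4 ± 4.24 CPM in KO and 50.3 ± 6.16 CPM in WT (edgeR adjusted p = 0.130), and Rb1, the retinoblastoma protein gene, had 35.3 ± 7.32 CPM in KO and 48.8 ± 8.21 CPM in WT (edgeR adjusted p = 0.192). Neither passed the threshold. In replicates 1 to 3 the log2 ratio of mean CPM was -0.38 for Tyk2, 0.56 for Socs1, 0.48 for Ifi27, -0.40 for Mx2, -0.36 for Runx2 and -0.35 for Rb1.

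Blood cell markers were read beside the members, since p200 genes are expressed in macrophages. All 10 macrophage markers were detected in every library, and their summed level was 248, 241, 282 and 131 CPM in KO replicates 1 to 4, against 172, 230, 166 and 334 CPM in WT replicates 1 to 4. The means were 225 ± 65.3 CPM in KO and 226 ± 77.9 CPM in WT, a two-sided exact permutation p of 1. Of the 10, 5 were higher and 5 lower on average in KO. The near-equal means depended on KO replicate 4 and WT replicate 4. Without these libraries every KO library lay above every WT library, with a log2 ratio of the summed macrophage level of 0.44 (exact permutation p = 0.1, adjusted p = 0.275). That p of 0.1 is the smallest the remaining libraries allow, so the test could not pass there. None of 11 cell type lists passed this test (adjusted p between 0.786 and 1, with 0.0286 the smallest unadjusted p the design allows). With library totals, endothelial markers reached that smallest p in the permutation test and still had an adjusted p of 0.314. A list that separates alone therefore could not pass, and nothing is read from the absence. Markers of osteoblasts summed to between 5801 and 10540 CPM in KO and between 5129 and 12930 CPM in WT, and those of osteocytes to between 70.6 and 176 CPM in KO and between 113 and 254 CPM in WT, with none of these markers at 0 in any library. Skeletal muscle markers summed to between 80630 and 142600 CPM in KO and between 54250 and 103500 CPM in WT, and neutrophil markers to between 769 and 7284 CPM in KO and between 1528 and 5340 CPM in WT. All 8 neutrophil markers were higher on average in KO, with a log2 ratio of the summed level of 0.54, or 1.31 without KO replicate 4 and WT replicate 4, and their part in the members' values was not tested.

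Levels of the members were set beside the macrophage markers from library to library within a genotype, as a description over 8 libraries that share depth and scaling. Pearson's r of deviations from the genotype means was 0.96 for Ifi204, 0.95 for Ifi213, 0.92 for Ifi209, 0.84 for Ifi214, between 0.72 and 0.78 for Ifi211, Mndal, Aim2 and Ifi207, 0.45 for Ifi202b and 0.33 for Ifi203. The KO values of Ifi213 rest on 2, 2, 2 and 0 counts, and the WT values of Ifi202b on 3, 4, 4 and 4. Neither r therefore shows that the gene follows the markers in that genotype. In the 6 libraries of replicates 1 to 3, r of deviations was 0.76 for Ifi204, 0.74 for Ifi209, 0.73 for Ifi211, 0.67 for Ifi207, 0.65 for Ifi214, 0.61 for Ifi203, 0.48 for Ifi213, 0.29 for Mndal and -0.01 for Aim2 and Ifi202b. Among these KO libraries alone, Ifi204, Ifi209 and Mndal were lowest in replicate 3, which had the most macrophage marker. The r over all 8 libraries, genotype included, was 0.95 for Ifi204, 0.57 for Ifi209, 0.32 for Ifi203, 0.15 for Ifi213 and 0.04 for Ifi202b. Ifi202b and Ifi213 fell on separate levels in the genotypes at like marker sums, and Ifi204 did not. Set per 1000 CPM of macrophage markers, Ifi202b was 48.8 ± 7.79 in KO and 0.533 ± 0.219 in WT, and Ifi213 was 0.181 ± 0.122 in KO and 16.75 ± 2.172 in WT. On this scale Ifi209 was 26.0 ± 3.98 in KO and 63.5 ± 10.6 in WT, and Ifi211 13.8 ± 2.90 in KO and 25.2 ± 5.50 in WT, both without overlap. Ifi214 was 2.998 ± 0.4182 in KO and 1.54 ± 0.523 in WT, also without overlap, and Ifi204, at 52.3 ± 4.82 in KO and 48.1 ± 5.83 in WT, overlapped. On this scale 5 members did not overlap, where 1.73% of all genes tested did not, against 13.1% before this division. Dividing by marker sums between 131.3 and 334.2 CPM adds spread to genes that do not follow the markers, while r was high for several members. The 1.73% is therefore not a like background for the members, and nothing is read from the excess. In replicates 1 to 3 the means per 1000 CPM of markers were 46.6 in KO and 0.617 in WT for Ifi202b, 0.242 in KO and 16.7 in WT for Ifi213, 27.2 in KO and 64.8 in WT for Ifi209, 12.9 in KO and 26.8 in WT for Ifi211, 3.03 in KO and 1.53 in WT for Ifi214, and 51.0 in KO and 50.4 in WT for Ifi204. The fold changes of the members with the macrophage level as a covariate kept their signs.

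**Figure D5:**
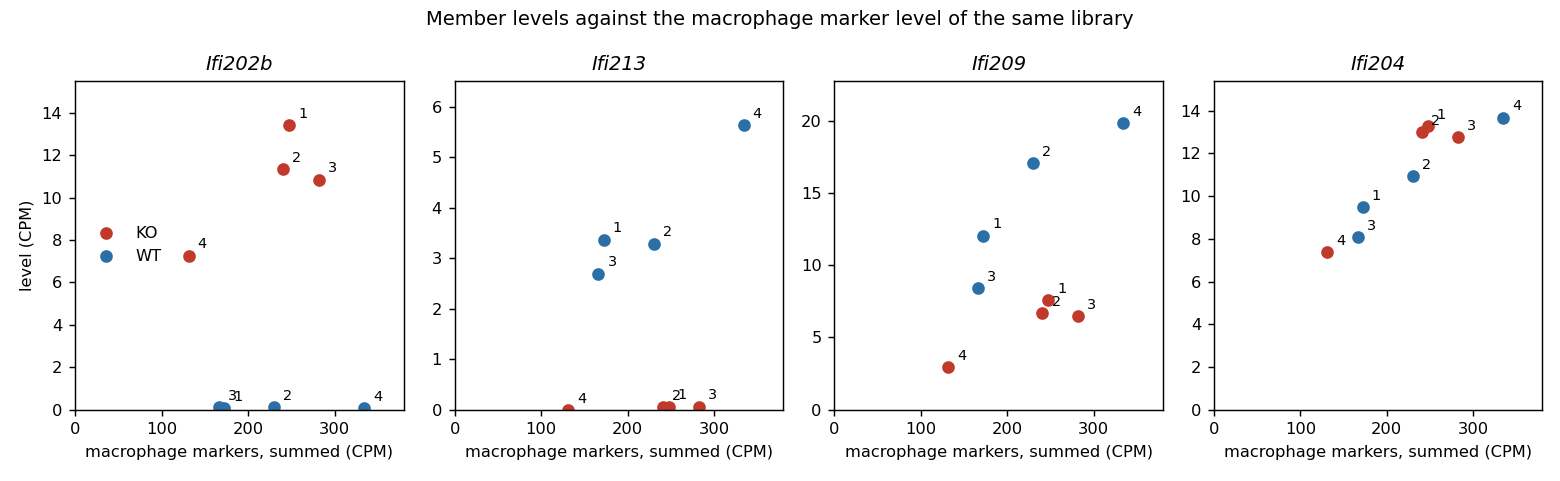
Level in CPM of 4 members (vertical axis, from 0) against the summed macrophage markers in CPM (horizontal axis) in each KO (red) and WT (blue) library, numbered by replicate. Ifi204 overlaps between the genotypes, with KO replicate 4 and WT replicate 4 at the ends, Ifi209 is lower in KO at a like marker level, and Ifi202b in WT and Ifi213 in KO stay near 0 at every marker level.

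Genes whose log2 CPM was most like that of the members over the 8 libraries were sought among all genes tested. For Ifi202b they were Itln1 (Pearson r = 0.996), Churc1 (0.985) and Cuta (0.982), and for Ifi213 Scaf4 (0.980), Cep170 (0.973) and Setd5 (0.973). Itln1, which encodes the lectin intelectin, had 53, 45, 43 and 17 counts in KO replicates 1 to 4 and 0 counts in each WT library. It lies on chromosome 1 at 171518122 to 171535294 (GRCm38), on the other side of Kcnj9 from the p200 cluster, and did not pass the edgeR threshold (adjusted p = 0.0644). For the sum of the 8 members other than Ifi202b and Ifi213 the most alike were Map1s (0.996), Abi1 (0.983) and Gstcd (0.982), and after removal of the genotype means Map1s (0.992), Fkbp1b (0.975) and Lrfn1 (0.975). In replicates 1 to 3 alone r lay between 0.941 for Lrfn1 and 0.999 for Itln1 for all of these genes. These values of r describe 8 libraries, among 17450 genes searched, and carry no p. For Ifi202b and Ifi213, near 0 in 1 genotype, r mainly restates the genotype difference. Churc1 and Scaf4, for example, had log2 fold changes of only 0.64 and -0.53. Likeness after removal of the genotype means was not sought for Ifi202b or Ifi213.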

How the data were processed

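The deposited data are 1 table of raw read counts, by Ensembl gene ID, for 4 KO and 4 WT libraries. Per the submitters' processing notes, bcl2fastq 2.17, STAR 2.5.2b and featureCounts (Subread 1.5.2) were used with build mm10. The sources used here do not give the annotation, strand setting, read length or how reads with several matches were counted, so reads of overlapping, antisense or near-identical genes may be split or shared. Groups and replicate numbers came from the sample titles. The labels give 4 mice per group.

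The counts were compared with edgeR 4.0.16 (R 4.3.3; robust quasi-likelihood test, TMM, filterByExpr, group only), with Benjamini-Hochberg adjustment over 17450 genes and a threshold of 0.05. All 10 members passed the filter. Log2 CPM used a prior count of 2. Symbols, exons and transcripts came from GENCODE M21, and promoters from RefSeq (GRCm38.p6). Transcript windows of 100 bases were compared with all GENCODE M21 transcripts on both strands, a choice made after seeing the data, since no genome sequence was used here; a planned comparison with the whole genome was not run. Coding sequences were aligned locally with Biopython 1.88. Fits were tested on simulated counts.

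The members, gene lists and tests were chosen with earlier results of these data known. Named genes are the members, Kcnj9, other p200 genes in the table, genes of the interval with an unadjusted p under 0.01, the 2 genes of smallest p in each list where none was called, and the 3 genes most alike by Pearson's r; any others are said to be chosen after their values were seen. Alternatives were DESeq2 1.42.0, limma-voom (limma 3.58.1) with quality weights, other size factors and filters, a replicate block, marker covariates, p200 genes as 1 feature, windows of 50 and 150 bases, each library left out and, chosen after seeing the data, replicate 4 of both genotypes left out (also for shares, correlations and named genes) and sums over genes that share windows.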

Additional observations from a re-analysis of the deposited data

Results flagged for a closer look

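Of 26 sets of 4 libraries checked (members and sums in each genotype), 2 held a library far from the other 3, where chance flags about 1 in 20. Ifi213 had 0.0 CPM in KO replicate 4, against 0.0588 to 0.0642 CPM in the other KO libraries, a gap of 0 against 2 counts. Ifi204 had 7.386 CPM in KO replicate 4, against 12.8 to 13.3 CPM in the other KO libraries. KO replicate 4 was also the KO library with the lowest sum of macrophage markers, at 131.3 CPM, and the part of that in these values was not tested.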

How the results depend on the processing

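The number of genes called, 2 in edgeR, was 984 by DESeq2, 701 by limma-voom, 71 with no low-count filter, 840 with the macrophage score and 966 with the muscle score as covariate, 458 without KO replicate 4 and WT replicate 4, 0 with all p200 genes as 1 feature, and between 2 and 4 with 1 library left out (4 without KO replicate 4). The cause of the differences in count was not tested, except that the p200 sum removed the 2 genes called. Members called lower, 1 in edgeR (Ifi213), were 3 by DESeq2 and with the macrophage score (with Ifi209 and Ifi211) and 2 with the muscle score (with Ifi209, log2 fold change -1.004, adjusted p = 0.04). Ifi202b was the 1 member called higher in every fit that kept members apart. The replicate numbers did not pair the libraries (r of deviations -0.187, -0.166, -0.247 and -0.568), and with the replicate block 1 gene and 0 members called lower remained in count, with Ifi213 at -6.11 (adjusted p = 0.104). Of 179 alternative values of the members' fold changes, 172 kept their direction and their side of the threshold, 5 passed it, 1 no longer did and 1 (Ifi214 by DESeq2) had no adjusted p. Of these, 0 changed sign. Leaving out 1 library gave log2 ratios of the 10-member sum between -0.40 and -0.15, and of the 8-member sum between -0.50 and -0.27. The median share of unique windows, 95.16% at 100 bases, was 84.89% at 50 and 98.78% at 150 bases.

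Marker sums, for which no list passed the permutation test, changed sign as follows, in log2 of KO over WT. Macrophage markers, -0.0021, were 0.0007 with edgeR's relative log expression (RLE) size factors, 0.4379 without both replicates 4, and between -0.1282 and 0.2499 with 1 library left out. B cell markers, -0.146, were 0.0416 without both replicates 4 and between -0.3127 and 0.0038 with 1 left out. T and NK cell markers, 0.1325, were between -0.0735 and 0.4466, and 0.7177 without both replicates 4. Erythroid markers, 0.0136, were -0.1099 with library totals between -0.1924 and 0.4091 with 1 left out, and 0.4955 without both replicates 4. Muscle markers, 0.2307, were between 0.0303 and 0.3302 with 1 left out and -0.1417 without both replicates 4. Osteocyte markers, -0.3642, were between -0.5337 and -0.1045 with 1 left out and 0.1034 without both replicates 4, and osteoblast markers, -0.2079, were between -0.4025 and 0.0149 with 1 left out. Neutrophil markers, 0.5437, kept their sign, between 0.2029 and 0.9542 with 1 left out and 1.306 without both replicates 4. Depth limits Ifi214 and the near-absent members most, with 4 to 29 and 0 to 4 counts per library.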
